A study of Homo sapiens with 9 samples.

Results

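The centromere and kinetochore genes form a set of 38 of the 58387 gene rows in an RNA-seq count table from the established multiple myeloma line MM1S. They were chosen by gene symbol, from the textbook membership of these structures, and all 38 passed the filter on low counts that left 16600 genes for testing. Cells infected with a lentiviral empty vector (shEV, n = 3) were set against cells with an shRNA knockdown of PHF19 (PHF19_KD, n = 3) and against knockdown cells that were given shRNA-resistant PHF19 (KD_Rescued, n = 2). All groups share the line, the medium and the lentiviral infection, and the promoters that drive the hairpin and the added PHF19 are not given in the labels. A further library carries a title of a knockdown and an shRNA label of shRNA-resistant PHF19, so it was kept apart, shown as single values and left out of every test. Whether replicates come from separate cultures is not stated, and the spread behind each p-value may therefore be technical only. The 3 PHF19_KD libraries share a name stem, and the library names place both KD_Rescued libraries in another sequencing lane than all the others, and an effect of the lane cannot be told apart from that of the rescue.

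The kinetochore is the protein assembly that ties each chromosome to the spindle at mitosis. It is built on nucleosomes that carry the histone H3 variant CENP-A, which the chaperone HJURP deposits after mitosis. Those nucleosomes recruit the constitutive centromere network of CENP proteins, and this network carries the KMN network (KNL1, the MIS12 complex and the NDC80 complex), which holds the microtubule. Many of these genes are known to be transcribed mainly in the later part of the cell cycle, under the repressive DREAM complex and its activating counterparts, which act on a promoter element called CHR (cell cycle genes homology region) and often on CCAAT boxes nearby. PHF19 is a Polycomb-like protein that helps to bring the histone methyltransferase PRC2 to chromatin.

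Depth was lowest in the knockdown, at 10609800 to 12024900 counts per library, against 16974700 to 22739700 in shEV and 23644100 to 23751400 in KD_Rescued. The library kept apart held 10164100 counts. The raw counts of single members ran from 233 (OIP5) to 4840 (CENPF) in shEV libraries and from 13 (CENPW) to 632 (PMF1) in PHF19_KD libraries, so the lowest members rest on few reads in the knockdown. PHF19 itself, the check of the labels, had 123, 123 and 103 normalised CPM (counts per library total, scaled with trimmed mean of M-values factors) in shEV, 25.9, 27.5 and 27.3 in PHF19_KD and 220 and 217 in KD_Rescued. The knockdown libraries lie below all others and the rescued ones above the controls. PHF19 was at 23.1% of the shEV mean in PHF19_KD, at 188% in KD_Rescued and at 54.5% in the library kept apart. The 9 plasma cell markers checked were detected, at a summed level of 10600 to 11700 CPM in shEV and of 7010 to 7190 in PHF19_KD. They did not move as one: IGJ went from 6660 to 2790 CPM and TNFRSF17, IRF4 and MZB1 also fell, while CD38 (148 to 332 CPM), SDC1 (676 to 1020 CPM) and XBP1 rose, and PRDM1 and SLAMF7 were not called. Markers of T and NK cells summed to 2.78 to 3.36 CPM in shEV, 5.37 to 7.27 in PHF19_KD and 2.91 to 3.17 in KD_Rescued, with CD3D and NKG7 at 0 in every library. CD7 carried the higher sum in PHF19_KD (1.09 CPM in shEV, 5.05 in PHF19_KD). CD3E was called lower there (1.08 to 0.434 CPM), GNLY was not called and CD2 was not tested. Monocyte markers summed to 20.3 to 23.2, 26.5 to 31.2 and 9.66 to 10.4 CPM, nearly all of it CD68. Fibroblast markers summed to 0.361 to 0.825, 2.23 to 2.79 and 0.374 to 0.417 CPM, nearly all of it COL1A1, with PDGFRA at 0. Epithelial markers summed to 1.35 CPM or less in every library, with KRT19 at 0. Erythroid markers, mostly HBB, summed to 5.61 to 6.21 CPM in shEV, 1.67 to 2.39 in PHF19_KD and 7.55 to 7.97 in KD_Rescued, the same order of groups as the 38 genes. The part of these markers in the results was not tested. Mitochondrially encoded genes took 9.60% ± 0.518 of counts in PHF19_KD (SD, n = 3), 3.16% ± 0.279 in shEV (SD, n = 3) and 5.08% ± 0.132 in KD_Rescued (SD, n = 2), and with those genes left out every call on the 38 genes was the same.

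The first comparison asked how transcripts of the centromere and kinetochore differ when PHF19 is depleted. CENPT rose and the other 37 genes fell, and the median over the 38 was -2.59 on the log2 scale. Among all 16600 tested genes 34.2% fell, 34.9% rose and 69.1% changed in either direction, and the median was 0.03. A fall of at least 2-fold was called for 33 of the 38, against 10.1% of tested genes, and a fall of at least 8-fold for 13, against 1.28%. The levels of both groups did not overlap for any of the 38, as for 71.9% of tested genes. As a sum, the 38 genes went from 2170 ± 49.9 CPM in shEV (SD, n = 3) to 507 ± 13.7 in PHF19_KD (SD, n = 3). In bulk RNA, fewer cells in a cycling state and less RNA of these genes in each cell cannot be told apart. Calls are from edgeR's quasi-likelihood test with Benjamini-Hochberg adjustment over all tested genes, at an adjusted p below 0.05. Upper-quartile scaling moved the median of all genes to 0.19 and that of the 38 to -2.43, and ended the call of NSL1.

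**Figure D1:**
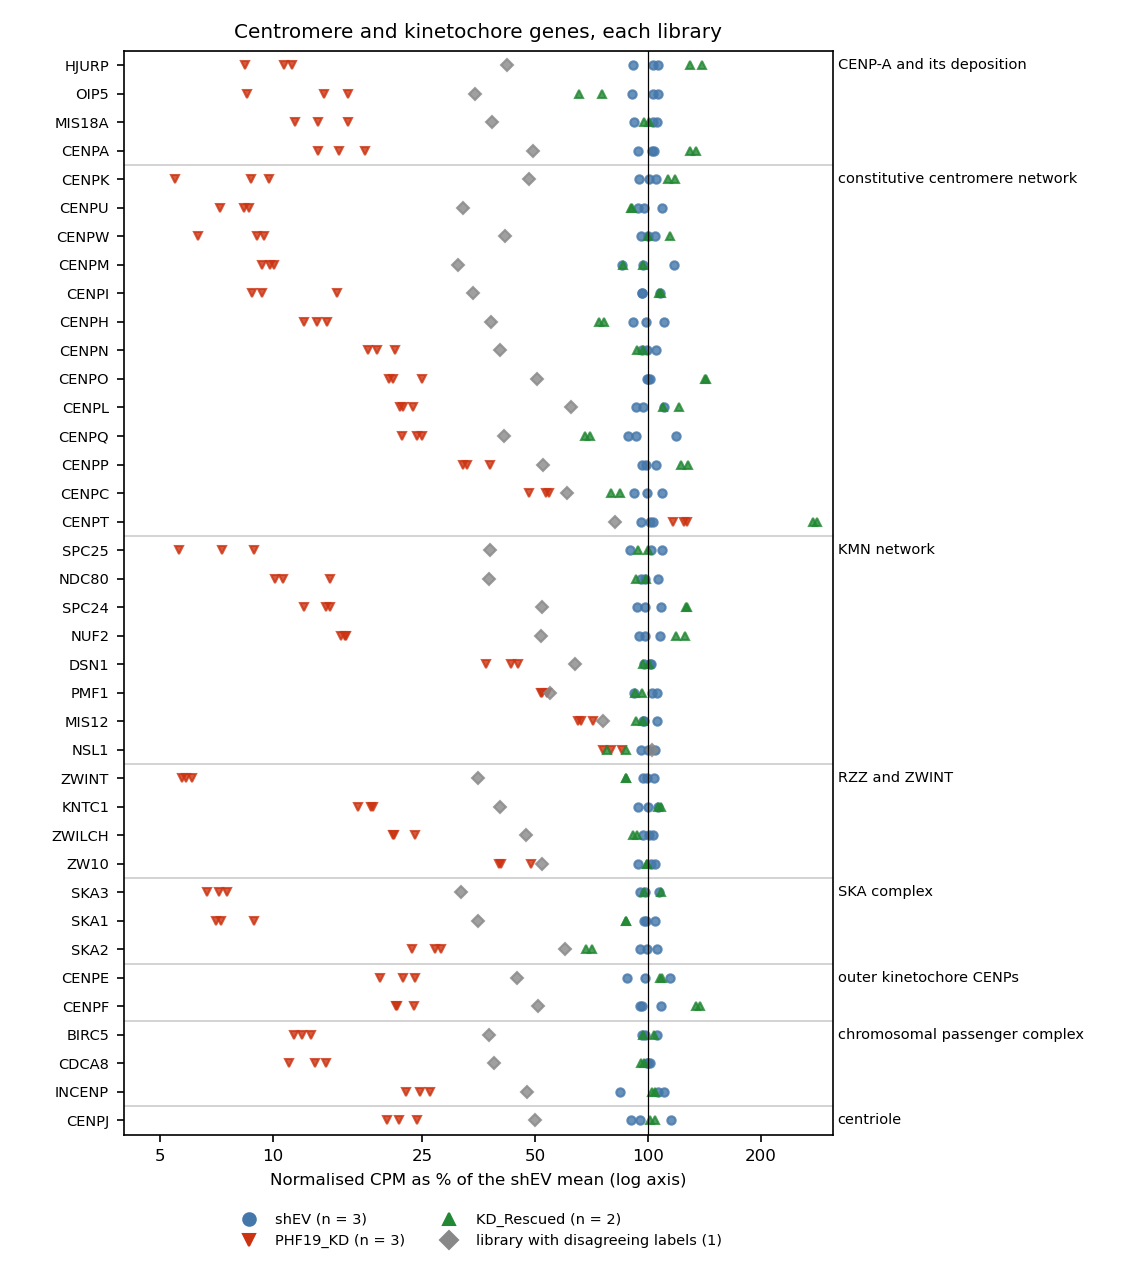
Normalised CPM of each of the 38 genes in each library, as a percentage of the gene's shEV mean on a log axis, grouped by complex and ordered by the level in PHF19_KD (circles, shEV; downward triangles, PHF19_KD; upward triangles, KD_Rescued; diamonds, the library with disagreeing labels). PHF19_KD ranges from 5.88% of shEV for ZWINT to 123% for CENPT, and KD_Rescued from 69.0% for CENPQ to 279% for CENPT.

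The size of the fall differed between genes far more than between libraries of a group. In PHF19_KD the median gene was at 16.6% of its shEV mean, 8 genes were at 10% or less, and 7 were at 40% or more. The 8 lowest were ZWINT, SKA1, SKA3, SPC25, CENPK, CENPM, CENPU and CENPW, which belong to several different complexes. The 7 highest were CENPC, CENPT, ZW10 and the 4 subunits of the MIS12 complex. Per library, the median log2 shift from the shEV mean over the 38 genes was -2.54, -2.49 and -2.63 in PHF19_KD.

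RefSeq promoter windows (GRCh38.p14, 250 bases before to 50 after a start site) were at hand for 31 of the 38 genes, and were read for letters of the CHR and the CCAAT box because the genes moved together. The CHR was searched as TTTGAA or TTCGAA, the CCAAT box as CCAAT and an E2F site as TTTCCCGC or TTTGGCGC, each on both strands. CHR letters stood in the windows of 17 of the 31 genes (54.8%), against 19.5% of 27305 genes with a window. A match that began within 50 bases of the start site was found in 14 of the 31 (45.2%), against 6.24% of all, a limit chosen after the positions were seen. CCAAT letters stood in 21 (67.7%, against 39.7%), both CHR and CCAAT letters in 12 (38.7%, against 9.02%), and E2F letters in 3 (9.68%, against 2.75%). These background shares are over all genes with a window, tested or not, and a gene counted if any of its windows matched. The median share of G and C letters was 61.3% in the members' windows and 58.7% in all windows. In the members' windows 1 pair of matches overlapped, a CHR and a CCAAT box in CDCA8. The 17 genes with CHR letters had a median log2 fold change of -2.99 in PHF19_KD and ran from -4.09 to -0.94, and the 14 without had a median of -2.0 and ran from -3.65 to 0.29, so the ranges overlap. By CCAAT letters the medians were -2.36 with and -2.45 without. The 5 genes with none of these letters in any window were spread over the order, from CENPI at -3.18 through CENPE at -2.20 and DSN1 at -1.27 to NSL1 at -0.32 and CENPT at 0.29. A match of letters is a description of the sequence and does not show that a factor binds there.

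Of the 14 genes with a CHR match near the start site, 9 are shown as examples, with log2 fold changes from -4.09 to -2.04 in PHF19_KD. OIP5, NUF2, CENPN, CENPO and CENPF, at -3.0 to -2.18, are not shown. For the 9, the 30 bases around the match nearest to the start site are given on the strand of the gene, 5′ to 3′, with the CHR letters in capitals.
ZWINT, chr10:56361273-56361302, minus strand: gtcgactgtgacTTCAAAgtaatcttaggg
SKA3, chr13:21176538-21176567, minus strand: ccggcgccgagaTTCAAActagtggcggga
SPC25, chr2:168890416-168890445, minus strand: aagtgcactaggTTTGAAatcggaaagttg
SKA1, chr18:50375066-50375095, plus strand: ggcgcggcgggcggTTTGAAttttgcttac
CENPW, chr6:126340120-126340149, plus strand: gttggcggcggaTTCGAAcgttcggactga
NDC80, chr18:2571542-2571571, plus strand: ccggcggagaatTTCAAATTCGAAcggctt
CDCA8, chr1:37692481-37692510, plus strand: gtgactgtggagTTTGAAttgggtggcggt
CENPA, chr2:26786026-26786055, plus strand: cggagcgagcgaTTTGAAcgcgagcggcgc
INCENP, chr11:62123989-62124018, plus strand: tgagccttcagtTTTGAAaatcatagtttt
NDC80 carries 2 CHR matches next to each other, and in ZWINT, SKA3 and the first match of NDC80 the letters TTTGAA are on the other strand. The match began 3 bases before the start site in SPC25 and SKA3, 18 bases before it in CENPA and 35 bases into the transcript in SKA1. ZWINT, the gene with the largest fall, has 2 CCAAT boxes upstream of its CHR, shown in capitals with it in the 130 bases before the more upstream of its start sites.
ZWINT, chr10:56361274-56361403, minus strand: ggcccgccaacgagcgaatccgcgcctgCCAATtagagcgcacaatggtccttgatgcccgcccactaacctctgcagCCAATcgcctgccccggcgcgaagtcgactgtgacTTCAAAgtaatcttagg

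**Figure D2:**
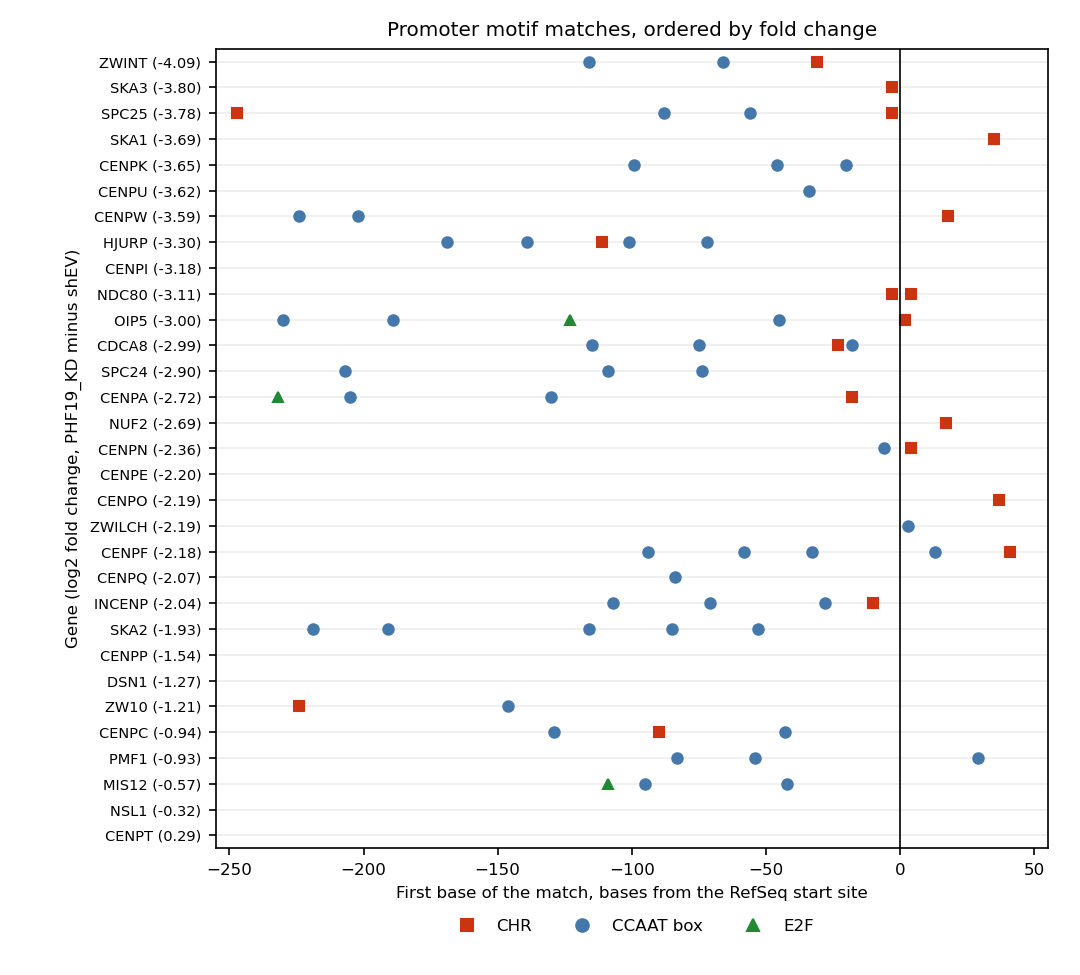
Positions of CHR (squares), CCAAT box (circles) and E2F (triangles) letters relative to the RefSeq start site, in bases, for the 31 genes with a promoter window, ordered from the largest fall in PHF19_KD at the top (log2 fold change beside each symbol; 1 window per gene). CHR matches gather near the start site in many of the upper and middle rows, but CENPK and CENPU in the upper rows hold no CHR match. No match of any kind stands in the rows of CENPI, CENPE, CENPP and DSN1 or in the bottom rows, NSL1 and CENPT.

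The genes of CENP-A and its deposition fell together. CENPA itself had 16.3, 14.9 and 16.5 CPM in the shEV libraries, 2.09, 2.80 and 2.38 in PHF19_KD, and 21.3 and 20.5 in KD_Rescued. The knockdown libraries lie far below the controls and the rescued libraries above them, with no overlap between any groups. HJURP, the chaperone that deposits CENP-A, had 34.1, 30.2 and 35.3 CPM in shEV and 2.79, 3.72 and 3.55 in PHF19_KD, a log2 fold change of -3.30 ± 0.12 (SE). MIS18A and OIP5, subunits of the MIS18 complex that marks the centromere for new CENP-A, changed by -2.90 ± 0.11 and -3.0 ± 0.18. MIS18A had 37.9, 38.8 and 33.8 CPM in shEV, 5.85, 4.21 and 4.85 in PHF19_KD, and 37.1 and 35.9 in KD_Rescued, which overlaps shEV. OIP5 had 11.7, 13.3 and 13.7 CPM in shEV, 2.04, 1.10 and 1.76 in PHF19_KD, and 9.70 and 8.44 in KD_Rescued, so it remained under all 3 controls. Relative to HJURP, CENPA fell less, the log2 ratio of both genes being 0.48 to 0.65 above its shEV mean in the PHF19_KD libraries. The values of CENPA were not whole numbers in 8 of 9 libraries, and those of HJURP were whole in all. CENPA also overlaps a coding gene on the same strand, so its count and this ratio are uncertain.

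Within the constitutive centromere network, 12 of 13 genes fell, beside 34.2% of all tested genes. The falls followed the textbook subcomplexes of the network in part. The CENP-H/I/K/M genes were at 7.99% to 13.1% of shEV, and the CENP-L/N genes, which contact the CENP-A nucleosome, at 19.4% to 22.6%. CENPH had 51.0, 55.1 and 61.7 CPM in shEV and 7.34, 6.78 and 7.80 in PHF19_KD. CENPI had 20.4, 20.3 and 22.7 CPM in shEV and 1.86, 1.98 and 3.12 in PHF19_KD. CENPM had 42.3, 51.2 and 37.2 CPM in shEV and 4.27, 4.38 and 4.07 in PHF19_KD. In each of these the knockdown libraries lie close to one another and far under the controls, which vary most for CENPM. CENPL went from 23, 22.1 and 26.3 CPM to 5.30, 5.62 and 5.20. CENPN went from 27.2, 29.7 and 28.1 CPM to 6.0, 5.09 and 5.35, also with a wide gap between the groups. The CENP-O/P/Q/U genes, of which CENPU helps to bring Polo-like kinase to the kinetochore, were spread from 8.07% (CENPU) to 34.3% (CENPP). CENPU went from 49.3, 47.4 and 55 CPM to 4.24, 4.35 and 3.66. CENPO, its partner in the same subcomplex, went from 34.9, 34.3 and 34.1 CPM to 8.59, 7.18 and 7.0. CENPP went from 21.5, 22.1 and 23.4 CPM to 7.35, 8.48 and 7.16. CENPQ, whose controls vary more, went from 17.5, 16.6 and 22.4 CPM to 4.55, 4.71 and 4.16. CENPC, the scaffold that links CENP-A nucleosomes to the MIS12 complex, fell least of the 12. It had 36.6, 33.8 and 40.1 CPM in shEV and 19.7, 17.7 and 20 in PHF19_KD, a log2 fold change of -0.94 ± 0.08 (SE). CENPK fell most, from 23.8, 22.5 and 24.9 CPM to 2.32, 2.07 and 1.30, at -3.65 ± 0.14, on counts as low as 15 in a knockdown library.

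CENPT and CENPW, which encode histone-fold partners in 1 subcomplex, moved in opposite directions. CENPW went from 20.1, 18.4 and 19.2 CPM in shEV to 1.21, 1.74 and 1.82 in PHF19_KD, at -3.59 ± 0.14 (SE). CENPT had 30.7, 30.2 and 28.5 CPM in shEV and 37.1, 34.6 and 37.9 in PHF19_KD, where all 3 libraries lie above the controls. Its rise of 0.29 ± 0.06 on the log2 scale (edgeR quasi-likelihood, Benjamini-Hochberg adjusted p = 0.000999) stood at 0.20 to 0.45 over all alternatives of scaling, filter, tool and left-out library, always past the threshold. The log2 ratio of CENPT to CENPW was 3.68 to 4.31 above its shEV mean in the PHF19_KD libraries, against -0.06 to 0.08 in shEV.

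The count of CENPT is uncertain, since its values were not whole numbers in 6 of 9 libraries, as when an estimator shares reads out between genes. In the GENCODE 29 annotation it overlaps TSNAXIP1, THAP11 and NUTF2 on the opposite strand, and no source used here gives the strand setting of the counting. These 3 genes were looked up after the values of CENPT were seen. NUTF2 rose by 0.49 ± 0.05 (SE) in PHF19_KD and TSNAXIP1 by 3.07 ± 0.46, from 0.140 to 1.20 CPM, while THAP11 was at 0.11 ± 0.07 (edgeR quasi-likelihood, Benjamini-Hochberg adjusted p = 0.146). Their part in the count of CENPT was not tested.

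The KMN network divided along its complexes. The 4 genes of the NDC80 complex, the microtubule-binding rod, were at 7.27% to 15.4% of shEV in PHF19_KD, and the 4 of the MIS12 complex, which joins that rod to the centromere, at 41.6% to 80.1%, so the 2 sets of values do not overlap. SPC25, at the inner end of the rod, had 26.2, 29.8 and 31.9 CPM in shEV and 2.14, 1.65 and 2.60 in PHF19_KD (log2 fold change -3.78 ± 0.14, SE). NDC80, which holds the microtubule, went from 52.1, 50.9 and 56.2 CPM to 7.53, 5.37 and 5.63, and its partner NUF2 from 57.3, 59.4 and 65.5 to 9.20, 9.50 and 9.44. SPC24, which pairs with SPC25, went from 53.2, 48.3 and 46.0 CPM to 5.95, 6.96 and 6.80. All 4 subunits of the rod therefore lay far below their controls in each knockdown library. In the MIS12 complex, DSN1 fell most, from 47.3, 45.3 and 47.2 CPM to 20.1, 17.2 and 20.9 (-1.27 ± 0.07). MIS12 changed by -0.57 ± 0.06, from 48.1, 47.8 and 52.1 CPM to 35.1, 32.1 and 32.6, and PMF1 by -0.93 ± 0.06, from 99.9, 103 and 89.3 to 50.5, 52.3 and 50.8. PMF1 shares its locus with the readthrough gene PMF1-BGLAP, so its count is uncertain. NSL1 changed least, from 49.8, 52.1 and 54.1 CPM to 41.3, 44.2 and 39.5, groups that do not overlap (-0.32 ± 0.07, edgeR quasi-likelihood, Benjamini-Hochberg adjusted p = 0.00119). That call was lost with upper-quartile scaling, at -0.16 (adjusted p = 0.0523, same test). The mean log2 shift of the NDC80 complex genes from shEV was -3.09, -3.24 and -3.06 in the 3 PHF19_KD libraries, and that of the MIS12 complex genes was -0.74, -0.80 and -0.77.

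**Figure D3:**
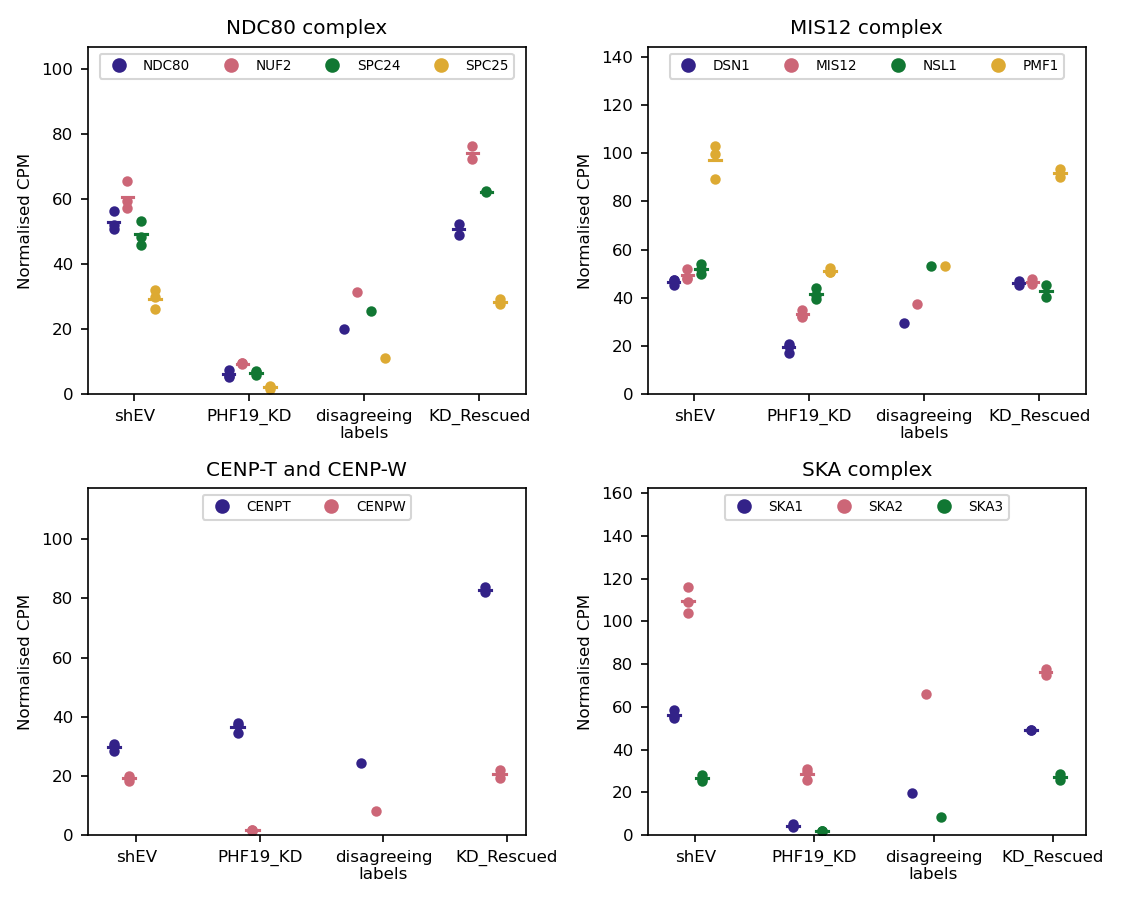
Normalised CPM of subunits of the NDC80 complex, the MIS12 complex, the CENPT and CENPW pair and the SKA complex in each library, by group (points, single libraries; bars, group means; the library with disagreeing labels has no bar). CPM are not scaled by gene length, so genes are to be compared across groups and not with each other; each NDC80 complex gene stands near the axis in PHF19_KD, while CENPT stands above its shEV points there and highest in KD_Rescued.

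ZWINT, an adaptor that binds KNL1 and brings the RZZ complex to the kinetochore, fell most of the 38. It had 186, 182 and 194 CPM in shEV and 11.4, 11 and 10.7 in PHF19_KD, which is 5.88% of shEV and a log2 fold change of -4.09 ± 0.06 (SE; edgeR quasi-likelihood, Benjamini-Hochberg adjusted p = 2.45e-13). The RZZ genes, whose proteins bring dynein and checkpoint factors to kinetochores, changed less, KNTC1 by -2.49 ± 0.07, ZWILCH by -2.19 ± 0.07 and ZW10 by -1.21 ± 0.08. ZW10, which also has a known role in membrane traffic of interphase cells, went from 38.4, 41.5 and 42.4 CPM to 16.5, 19.8 and 16.3. KNTC1, the ROD subunit, went from 63.4, 59.7 and 67.5 CPM to 11.7, 11.6 and 10.7, and ZWILCH from 55.1, 57.2 and 58.8 to 13.6, 11.9 and 12. The log2 ratio of ZW10 to KNTC1 was 1.14 to 1.41 above its shEV mean in PHF19_KD.

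The SKA complex, which helps the NDC80 complex to follow shortening microtubules, had 2 of the deepest falls. SKA1 changed by -3.69 ± 0.09 (SE) and SKA3 by -3.80 ± 0.12. SKA1 had 55.5, 54.9 and 58.7 CPM in shEV and 4.09, 3.97 and 5.02 in PHF19_KD. SKA3 had 25.1, 26.0 and 28.3 CPM in shEV and 1.77, 1.90 and 1.99 in PHF19_KD. SKA2 changed less, by -1.93 ± 0.07, from 109, 104 and 116 CPM to 30.8, 29.6 and 25.7. The values of SKA2 were not whole numbers in any of the 9 libraries, so its count is uncertain.

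CENPE, a kinesin motor of the kinetochore, and CENPF, a large protein of its outer corona, fell to 21.8% and 22.1% of shEV. CENPE went from 81.0, 72.9 and 94.5 CPM to 19.8, 16 and 18.4 (-2.20 ± 0.11, SE). CENPF went from 218, 215 and 245 CPM to 53.6, 48.1 and 48.4 (-2.18 ± 0.06, SE). Of the chromosomal passenger complex, which corrects faulty attachments, BIRC5 (survivin) had 131, 141 and 128 CPM in shEV and 15.9, 15.2 and 16.8 in PHF19_KD (-3.06 ± 0.07), and CDCA8 (borealin) had 114, 112 and 113 and then 15.6, 12.5 and 14.6 (-2.99 ± 0.07). INCENP, the scaffold of that complex, changed less than both, by -2.04 ± 0.11, with 108, 112 and 85.6 CPM in shEV and 26.7, 23 and 25.1 in PHF19_KD. CENPJ, which despite its symbol encodes a centriole assembly protein, changed by -2.18 ± 0.12, from 26.9, 25.4 and 32.4 CPM to 6.13, 5.70 and 6.84.

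The second comparison asked what changed when PHF19 was returned to knockdown cells. Here 37 of the 38 genes rose and 0 fell, around a median of 2.60 on the log2 scale, while 33.9% of tested genes rose, 29.5% fell and 63.4% changed in either direction. A rise of at least 2-fold was called for 34 of the 38, against 10.5% of tested genes, and the groups did not overlap for 37, as for 77.2% of tested genes. This comparison shares the PHF19_KD libraries with the first, so the 2 are not independent. ZWINT changed by 3.89 ± 0.06 (SE), SKA3 and CENPK by 3.85 ± 0.12 and 3.85 ± 0.14, SPC25 by 3.74 ± 0.15 and HJURP by 3.72 ± 0.12. At the low end stood PMF1 at 0.84 ± 0.06, CENPC at 0.66 ± 0.09 and MIS12 at 0.49 ± 0.07. Among the rescued levels, ZWINT had 163 and 164 CPM, SKA1 49.1 and 49.1, SPC25 27.6 and 29.3, and NDC80 49.1 and 52.4. Of the passenger complex, BIRC5 had 129 and 138 CPM, CDCA8 108 and 110 and INCENP 106 and 104. All 7 lie far above their PHF19_KD libraries. CENPT rose by 1.18 ± 0.06 from a level that was already above the control. The genes that overlap it on the other strand were called lower here, NUTF2 at -0.6 ± 0.06, TSNAXIP1 at -1.25 ± 0.41 and THAP11 at -0.33 ± 0.07.

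NSL1 was the gene without a call. It had 41.3, 44.2 and 39.5 CPM in PHF19_KD and 45.5 and 40.3 in KD_Rescued, so the groups overlap (log2 fold change 0.04 ± 0.07, SE; edgeR quasi-likelihood, Benjamini-Hochberg adjusted p = 0.633). Its estimates ran from -0.11 with upper-quartile scaling to 0.13 without KD_Rescued replicate 2, none past the threshold.

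The third comparison asked how far the rescued cells stood from the controls. The median log2 fold change was -0.01 over the 38 genes and 0.02 over all tested genes. Of the 38, 22 were not called, 8 were called higher and 8 lower. That is 42.1% of the 38, near the 39.8% called among all tested genes (20.7% higher and 19.1% lower), and the groups did not overlap for 22 of 38, as for 61.8% of tested genes. As a sum, the 38 genes stood at 2260 ± 8.10 CPM in KD_Rescued (SD, n = 2), and 24 of them were within 15% of their shEV mean. The 22 genes without a call had all fallen in PHF19_KD and risen in KD_Rescued over PHF19_KD. Shares of all tested genes within 15% of shEV, or with this order of calls, were not computed.

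**Figure D4:**
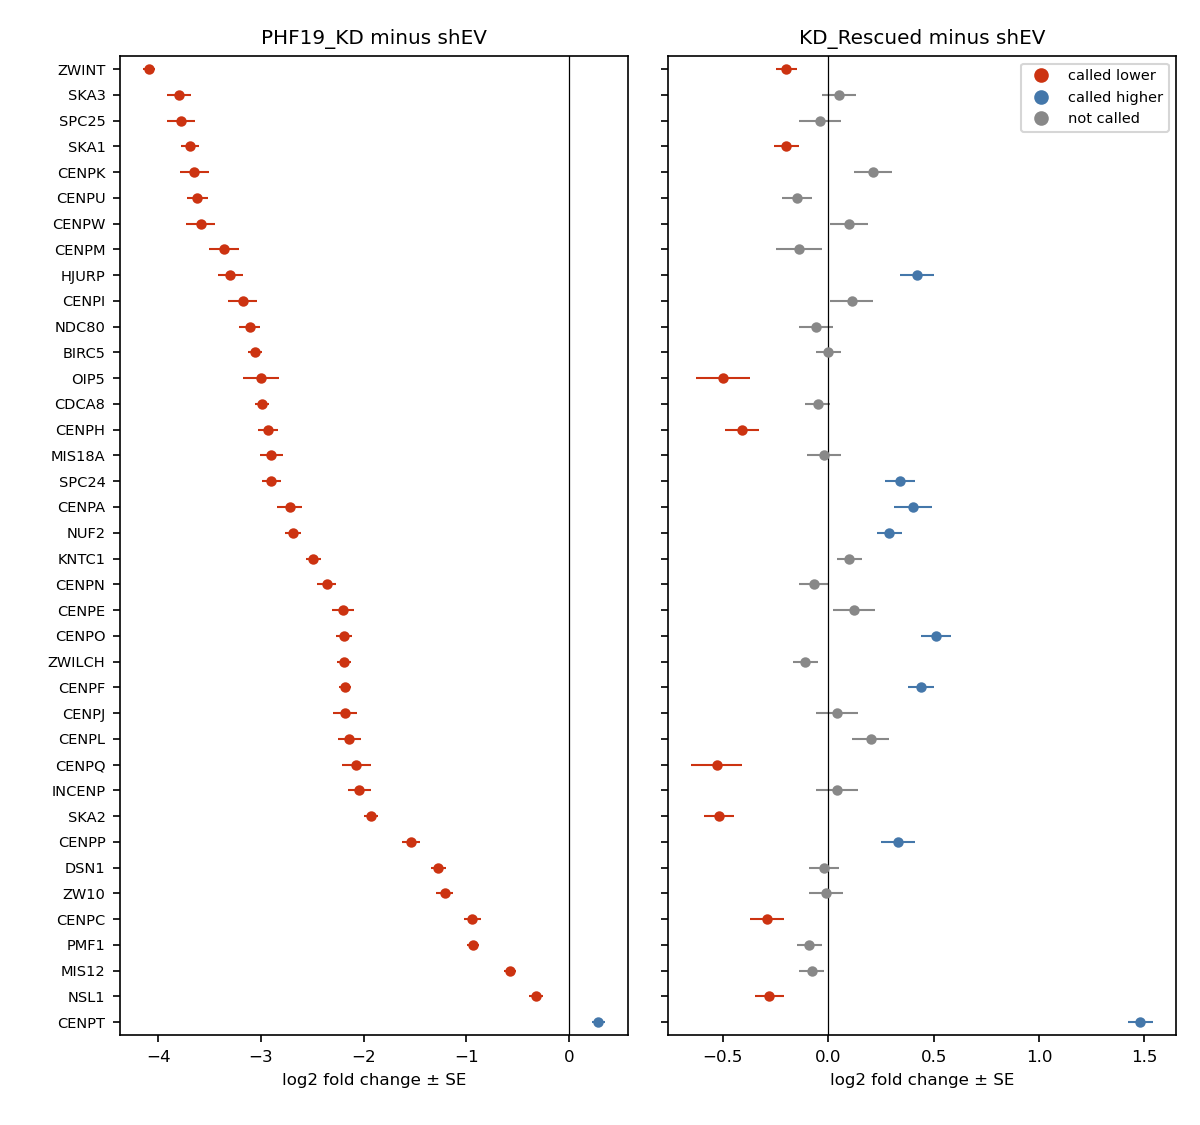
Log2 fold changes with their standard errors for the 38 genes, PHF19_KD minus shEV on the left and KD_Rescued minus shEV on the right (axes differ), ordered by the left panel. On the left CENPT at 0.29 is the point above 0; on the right the points lie from -0.53 (CENPQ) to 0.51 (CENPO) except CENPT at 1.48.

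CENPT stood farthest from the control, with 83.8 and 82.0 CPM in KD_Rescued against 28.5 to 30.7 in shEV, a log2 fold change of 1.48 ± 0.06 (SE; edgeR quasi-likelihood, Benjamini-Hochberg adjusted p = 3.06e-08). It was the one gene of the 38 that was at least 2-fold higher, a call made for 5.46% of tested genes. Of the genes that overlap it on the other strand, TSNAXIP1 stood at 1.82 ± 0.51, from 0.140 CPM in shEV to 0.499 in KD_Rescued, NUTF2 at -0.12 ± 0.06 and THAP11 at -0.21 ± 0.07. CENPW stood at 0.10 ± 0.09, without a call.

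The other 7 genes called higher were CENPO, CENPF, HJURP, CENPA, SPC24, CENPP and NUF2, with log2 fold changes from 0.51 to 0.29. CENPO had 34.9, 34.3 and 34.1 CPM in shEV and 49.1 and 48.8 in KD_Rescued, well apart, and CENPF had 304 and 310 CPM in KD_Rescued. HJURP had 43.0 and 46.1 CPM there, NUF2 72.2 and 76.3, SPC24 62.4 and 62.2, and CENPP 27.4 and 28.6, each above its 3 controls. The 8 called lower were CENPQ, SKA2, OIP5, CENPH, CENPC, NSL1, SKA1 and ZWINT, from -0.53 to -0.20. SKA2 had 77.7 and 74.9 CPM in KD_Rescued against 104 to 116 in shEV, CENPH 41.3 and 42.7 against 51.0 to 61.7, and CENPQ 12.8 and 13.2 against 16.6 to 22.4. CENPC had 29.3 and 31.0 CPM in KD_Rescued against 33.8 to 40.1 in shEV. None of these 4 overlapped its controls. So within the CENP-O/P/Q/U subcomplex, CENPO and CENPP stood above the control, CENPQ below it, and CENPU at -0.15 ± 0.07 without a call. Within the NDC80 complex, SPC24 and NUF2 were called higher, and NDC80 and SPC25 stood at -0.06 ± 0.08 and -0.04 ± 0.10.

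Of these 16 calls, 8 held under every alternative of scaling, filter, tool, replicate block and left-out library, namely those of CENPT, CENPO, CENPF, HJURP and SPC24 (higher) and of CENPQ, SKA2 and CENPH (lower). The calls of CENPA, CENPP, NUF2, OIP5, CENPC, NSL1, SKA1 and ZWINT were each lost under at least 1 of them, and CENPE, CENPK, CENPL, CENPM, CENPU, KNTC1 and PMF1 each gained a call under at least 1. The number called lower was 5 without KD_Rescued replicate 1 and 3 without KD_Rescued replicate 2, and without shEV replicate 3 the numbers were 12 higher and 10 lower.

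The library with disagreeing labels lay between the groups. For 36 of the 38 genes its level was above every PHF19_KD library and below every shEV library. Its median over the genes was 45.9% of shEV, and 35 genes were between 30% and 65%. Shares of all tested genes were not computed for these counts, so they do not set the 38 apart from other genes. ZWINT had 65.8 CPM in this library, NDC80 20, SKA3 8.37 and CENPA 7.82. The 2 exceptions were NSL1, at 53.3 CPM within the range of shEV, and CENPT, at 24.3 CPM below every labelled library. None of the 38 was above the highest shEV library, and mitochondrially encoded genes took 5.56% of its counts.

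A further list of 58 genes of the kinetochore, the spindle checkpoint and their partners gives the setting of the 38, and 57 of these were tested. In PHF19_KD 51 fell and 4 rose, with a median of -1.14, beside the 34.2% and 34.9% of all tested genes. Falls of at least 8-fold were called for 9 of them, against 1.28% of all tested genes. Among these 9 were TRIP13, which remodels checkpoint proteins (-4.24 ± 0.07, SE), and HELLS, a chromatin remodeller (-3.82 ± 0.11). GSG2 (haspin), the kinase that places the passenger complex, was also among them (-3.42 ± 0.13). KNL1, the third part of the KMN network and listed as CASC5, changed by -2.94 ± 0.10, and AURKB, the kinase of the passenger complex, by -3.06 ± 0.07. The partners of CENPT and CENPW listed as APITD1 (CENP-S) and STRA13 (CENP-X) changed by -0.99 ± 0.09 and -1.69 ± 0.11, and ITGB3BP (CENP-R), which joins the CENP-O group, by -1.66 ± 0.11. The 4 rises were DYNLT3, a dynein light chain (0.60 ± 0.07), the nuclear pore gene TPR (0.33 ± 0.06), CLASP1 (0.18 ± 0.05) and RSF1 (0.17 ± 0.07), and the calls for higher numbered 2 without a filter. CENPB, which binds the centromeric DNA repeat, and CLIP1 were not called, at -0.13 ± 0.10 and -0.01 ± 0.08. In KD_Rescued against PHF19_KD 50 of the 57 rose, beside 33.9% of tested genes, most of all TRIP13 (4.25 ± 0.07), HELLS (3.77 ± 0.12) and the checkpoint kinase gene BUB1B (3.44 ± 0.11). The 3 that fell were DYNLT3 (-0.75 ± 0.08), RSF1 (-0.45 ± 0.08) and CLASP1 (-0.23 ± 0.05), and TPR, CENPB, PAFAH1B1 and CLIP1 were not called, at -0.13 to 0.10. Against shEV the rescued cells had 10 of the 57 called higher and 14 lower, a share of 42.1%, near the 39.8% of all tested genes. The largest differences below shEV were those of MAD2L1 and BUB3, checkpoint genes (-0.43 ± 0.09 and -0.39 ± 0.05), and SEH1L (-0.36 ± 0.06), and above it those of CENPV (0.56 ± 0.20), STRA13 (0.47 ± 0.09) and NUP85 (0.38 ± 0.06).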

How the data were processed

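RNA-seq of 9 MM1S libraries was used. The authors deposited a table of estimated counts per gene, not scaled between libraries; per the submitters' processing notes, CASAVA, RSEM and hg19 were used, in roles not given, and the table's name refers to salmon. No source used here gives the annotation, the filters or the strand setting. After rounding to whole counts, the 8 labelled libraries entered 1 fit of group means in edgeR 4.0.16 (R 4.3.3), with the filterByExpr filter, trimmed mean of M-values (TMM) scaling and the robust quasi-likelihood test. The SE came from the log2 fold change and its F statistic. Normalised CPM use the unrounded counts, column totals and TMM factors. Each replicate pair differed by more than counting noise (chi-square per degree of freedom 1.37 to 9.15), with shEV replicate 3 farthest from its group. Of the 38 genes, 16 had values that were not whole within 0.01 in at least 1 library (CENPA, OIP5, CENPC, CENPI, CENPL, CENPN, CENPO, CENPP, CENPT, CENPU, SPC24, MIS12, PMF1, ZWILCH, SKA2 and INCENP), and are uncertain where reads are divided. Among the 22 others, 22 fell in PHF19_KD, beside 34.2% of all tested genes. In GENCODE 29, 13 of the 38 overlap a coding gene on the opposite strand and 2, CENPA and PMF1, on the same strand. Alternatives were DESeq2 1.42.0, limma-voom (limma 3.58.1), upper-quartile scaling, no filter, no mitochondrially encoded genes, a replicate block and each library left out. The fit was tested on simulated data in which a small share of genes was changed, evenly in both directions. That test does not show how the scaling behaves when as many genes change as here. The genes, lists and tests were chosen with earlier results of these data known. The text may name all 38 genes and, of the further list, the 3 largest called falls and rises per comparison and the genes not called where 5 or fewer; RSF1 as a further rise, the partners CASC5, AURKB, APITD1, STRA13 and ITGB3BP, and the genes overlapping CENPT were named after their values were seen.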

Additional observations from a re-analysis of the deposited data

How the results depend on the processing

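The falls of 37 genes and the rise of CENPT in PHF19_KD kept their direction under all alternatives run, and their calls did too except that of NSL1 with upper-quartile scaling; the 37 rises of KD_Rescued over PHF19_KD were all kept. Leaving out each library in turn gave 37 falls and 37 rises in these comparisons, and in KD_Rescued against shEV 6 to 12 genes called higher and 3 to 10 called lower. For the further list in that comparison the ranges were 3 to 11 higher and 6 to 16 lower, with 4 higher under DESeq2, and for all genes 2168 to 3714 higher and 1880 to 3825 lower, with 2226 higher under DESeq2. For that list, the genes called higher in PHF19_KD numbered 2 without a filter, and those called lower in KD_Rescued against PHF19_KD numbered 5 with upper-quartile scaling; the cause was not tested. Upper-quartile scaling raised the share of higher calls over all genes from 50.5% to 60.6% in PHF19_KD against shEV and lowered it from 53.4% to 42.1% in KD_Rescued against PHF19_KD, and in KD_Rescued against shEV it was 52.1% and, with DESeq2, 42.3%. No source used here says that replicate numbers pair the libraries. Deviations from the group means showed no shared shift between libraries of the same number (correlations from -0.01 to 0.03), which cannot decide the question with so few libraries per group. A replicate block left the counts of falls and rises at 37. In KD_Rescued against shEV it ended the call of SKA1 (-0.16) and began those of CENPL (0.26) and CENPE (0.20), with 10 genes called higher and 7 lower. The lowest count of any of the 38 genes was 13 in PHF19_KD and 203 in KD_Rescued, and there were 2 rescued libraries.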
